A study of Mus musculus with 2 samples.

Results

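Fibro 2 is a fibroblast population of the mouse aorta, named by the authors of a single-cell RNA sequencing atlas and described here as adventitial fibroblasts. Its members were the cells that carry the name Fibro 2 in the deposited cell annotation, 634 of 5451 cells, with 207 in library 1 and 427 in library 2. The annotation names 9 other populations: Fibro 1 (1147 cells), VSMC (2159), EC 1 (425), EC 2 (229), EC 3 (94), Mono 1 (443), Mono 2 (109), Macro (167) and Neuron (44). Fibro 1, the other population with a fibroblast name, is the main comparator.

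All cells came from 1 group of wild-type C57/BL6 mice, labelled female and aged 12 weeks, with each library made from the aorta of 1 animal. The protocol shared by the samples names chow and Western diet mice without giving the diet sample by sample, and the series is described as one of the normal vessel. The deposited counts and cell annotation used here are labelled chow. The whole aorta, from its root to the femoral bifurcation, was cleared of perivascular fat and digested for 1 h at 37 °C with collagenases, hyaluronidase and DNase. Single cells were then captured in droplets (10x Genomics, version 2 chemistry) and counted by unique molecular identifiers (UMIs), the tags that mark single RNA molecules. Both libraries belong to 1 group, so the comparisons are between populations. The authors' names come from expression in the same cells. The p-values are therefore no independent test that the populations exist. They say how far a difference exceeds the scatter left between libraries once the shift common to all populations is removed. That scatter is estimated from all 10 populations together, with 9 residual degrees of freedom.

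Adventitial fibroblasts lie in the outer coat of an artery, where they lay down and turn over fibrillar collagen and secrete chemokines, complement proteins and growth factor binding proteins. In several mouse organs, fibroblasts that carry Pi16 and Dpp4 occupy the connective tissue around vessels and below organ surfaces, while fibroblasts that carry Col15a1 lie within the parenchyma. Both kinds carry Pdgfra, a tyrosine kinase receptor of the PDGF family. No measurement of position in the vessel wall was made here, so the word adventitial rests on gene expression alone.

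The libraries did not match in the genes that tell the sexes apart, although both are labelled female. Xist, the RNA that silences one X chromosome in female cells, had 821 UMIs in 182 of 207 Fibro 2 cells of library 1. In library 2 it had 0 UMIs in 427 Fibro 2 cells, which allows a share of cells with a UMI of up to 0.703%. The Y-linked gene Ddx3y had 30 UMIs in Fibro 2 cells of library 2, against 0 UMIs in all 2260 cells of library 1. Library 2 thus went against its label, and counts that move, and calls of named genes that are lost, when a library is left out are given beside the result. The libraries shared 12 cell barcodes before the library suffix was added. Fibro 2 cells had a median of 4515 UMIs and 1894 genes in library 1 and of 5906 UMIs and 2147 genes in library 2, against 4579.5 and 6024 UMIs in Fibro 1 cells. Summed over cells, the Fibro 2 profiles held 1041490 and 2704216 UMIs.

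Fibro 2 made up 9.16% of the cells of library 1 (exact 95% interval 8.00 to 10.4%) and 13.4% of those of library 2 (12.2 to 14.6%). Its mean share was 11.3 ± 2.99% (SD, n = 2 libraries), and the intervals, which cover counting error only, did not overlap. Among fibroblasts alone, Fibro 2 cells were 34.7% in library 1 (30.9 to 38.6%) and 36.1% in library 2 (33.3 to 38.9%), so the division between the fibroblast populations was alike in both aortas. When all cells were clustered again, 587 of the 634 Fibro 2 cells (92.6%) fell into clusters led by Fibro 2 and 45 joined Fibro 1 clusters, while 10 of the 1147 Fibro 1 cells went the other way. With clusters built on a random portion of the UMIs, 588 of the 634 cells (92.7%) fell into 1 Fibro 2 cluster.

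Genes carried by fibroblasts in general were high in Fibro 2. Expression is given as CPM, the usual unit for sequencing counts corrected for depth, here the UMIs of a gene relative to the total of the population in one library. Differences are log2 fold changes ± standard error from edgeR's quasi-likelihood test on the summed UMIs, with library as a block, and a gene was called at a Benjamini-Hochberg adjusted p under 0.05 over all genes tested. Of 20 genes carried by fibroblasts in general, 19 were higher in Fibro 2 than in the mean of the other 9 populations and 1, Lamc3, was lower, where 22.3% and 9.21% of all 10488 genes tested were called in those directions. The Lamc3 call was lost without library 2 and with the UMIs split, while 19 remained the number higher. The Lamc3 call was also lost with doublets left out, with cells thinned and with the shallowest and deepest cells left out. The list's median log2 difference was 3.97, against 0.08 for all genes. Decorin (Dcn), a proteoglycan that binds collagen fibrils, stood at 14378 and 15934 CPM in Fibro 2 of libraries 1 and 2, with 12351 and 14820 CPM in Fibro 1. Its log2 difference was 4.73 ± 0.19 from the mean of the other populations and 0.15 ± 0.34 from Fibro 1 (adjusted p = 0.87).

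The 5 marker genes divided into a fibroblast marker that Fibro 2 shared with Fibro 1 and 4 genes that it did not. Pdgfra had 323 and 352 CPM in Fibro 2, against 293 and 341 CPM in Fibro 1, and the log2 difference of 0.07 ± 0.12 did not pass the test (adjusted p = 0.81). Ccl11, the eotaxin chemokine that attracts eosinophils, had 1123 and 806 CPM in Fibro 2, against 32.2 and 35.3 CPM in Fibro 1. It was 4.72 ± 0.19 log2 units higher (adjusted p = 2.1e-17) and was called higher in Fibro 2 than in each of the other 9 populations. Both Fibro 2 values lay above every value of every other population, of which EC 2 in library 1 was the highest at 107 CPM.

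Procr, the endothelial receptor for protein C, had 158 and 249 CPM in Fibro 2, against 3.12 and 5.16 CPM in Fibro 1, a log2 difference of 5.54 ± 0.21 (adjusted p = 1.7e-18). EC 1 had 229 and 242 CPM and EC 3 had 202 and 284 CPM, so the Fibro 2 values lay within the range of these endothelial populations or below it. Dpp4, a membrane peptidase that trims chemokines and incretins, had 64.3 and 81.0 CPM in Fibro 2, against 0.520 and 1.72 CPM in Fibro 1 (5.69 ± 0.30, adjusted p = 2.8e-15). Mono 2 came closest for Dpp4, with 61.1 and 42.3 CPM. Pla1a, a phospholipase that releases lysophosphatidylserine, had 115 and 161 CPM in Fibro 2, against 2.08 and 1.29 CPM in Fibro 1 (6.50 ± 0.27, adjusted p = 6.7e-18), and the next value was 74.8 CPM in the 32 Neuron cells of library 2. Each of these 4 genes was called without library 1 and without library 2.

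**Figure D1:**
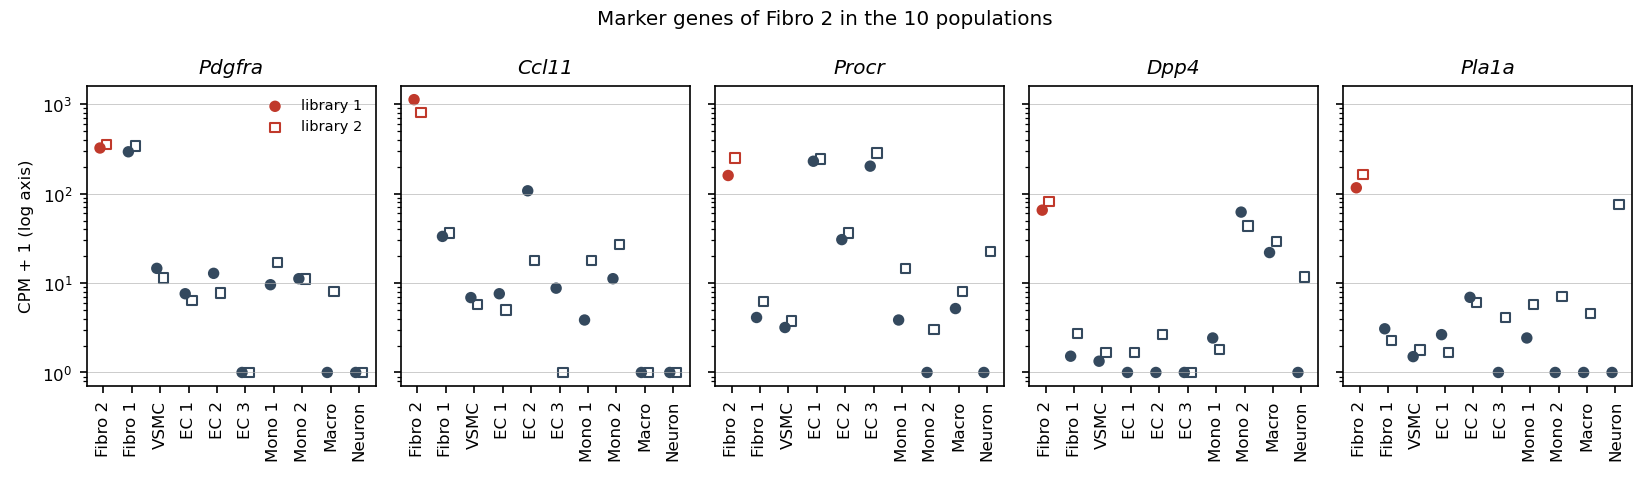
Expression of the 5 marker genes in the 10 populations, in CPM + 1 on a log axis, with a filled circle for library 1 and an open square for library 2, and Fibro 2 in red. Pdgfra is at about the same height in both fibroblast populations, Ccl11 stands apart in Fibro 2, Procr is as high in EC 1 and EC 3, and Dpp4 is nearly as high in Mono 2.

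The sequence just upstream of the start site is shown for Dpp4, which was at most 1.72 CPM in Fibro 1, and for Fmod (fibromodulin, described below), which was high in Fibro 1 and at most 13.7 CPM in Fibro 2. Both are the 150 bases before the RefSeq start in GRCm38.p6, written 5′ to 3′ on the strand of the gene. Dpp4 is at chr2:62412232-62412381 on the minus strand and Fmod at chr1:134037104-134037253 on the plus strand. Capitals mark matches to any of the 5 motifs searched.
Dpp4: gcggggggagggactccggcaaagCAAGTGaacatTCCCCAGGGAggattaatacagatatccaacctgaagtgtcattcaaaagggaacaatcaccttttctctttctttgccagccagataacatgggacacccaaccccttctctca
Fmod: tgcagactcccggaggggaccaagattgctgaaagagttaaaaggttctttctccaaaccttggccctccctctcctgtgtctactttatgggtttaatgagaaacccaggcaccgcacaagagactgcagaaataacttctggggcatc

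Both strands were searched for the TATA box TATAAA, the GC box GGGCGG, the E-box CANNTG, the AP-1 motif TGANTCA and the palindromic EBF motif. The Dpp4 window holds an E-box that begins 126 bases before the start and an EBF match that begins 115 bases before it, and the Fmod window holds none of the 5. Of other genes higher in Fibro 2, the Pi16 window also holds none of the 5, and the Procr window holds only an E-box. Among 32851 windows of the same length, 47.7% hold an E-box and 0.448% (147 windows) an EBF match. Of the 25 windows that belong to 19 genes of the Pi16-type list described next, 11 hold an E-box and 1, that of Dpp4, holds an EBF match. A match is a description of letters and was not tested as a binding site. Ccl11 and Pla1a had no entry in the sequence table.

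Genes known from Pi16-carrying adventitial fibroblasts of other mouse organs were higher in Fibro 2 as a group. Of 25 such genes, all 25 were tested, 25 were called higher than in Fibro 1 and 0 lower, where 7.20% of the 10488 genes tested were called higher. The median of the list was 2.34 on the log2 scale, against -0.02 for all genes. Against the mean of the other 9 populations 24 were called higher, all but Limch1. The number called higher than in Fibro 1 was 23 without library 1, 23 without library 2 and 22 by DESeq2; Mfap5 and Pcolce2 lost their calls in each of these fits, and Stmn4 in the last. Dpp4 and Procr belong both to this list and to the markers, so the 2 counts overlap. This list, like the others, was chosen with earlier results of these data known, so its counts are no independent test of identity.

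Pi16 itself, a secreted protein of the peptidase inhibitor name that marks such fibroblasts, had 6465 and 7132 CPM in Fibro 2, against 1638 and 1566 CPM in Fibro 1 (2.06 ± 0.23, adjusted p = 3.1e-08). Fibro 1 was next highest of the 9 populations, so Pi16 RNA was found in both fibroblast populations and differed in amount. With each cell thinned to 1500 UMIs, 73.2% and 76.3% of Fibro 2 cells had a Pi16 UMI, against 71.4% and 69.1% of Fibro 1 cells. In VSMC cells, which should lack the gene, the share was 13.1% and 13.4%.

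Surface proteins of the list rose as well. Ly6c1, a membrane-anchored antigen, had 1080 and 1120 CPM in Fibro 2, against 87.3 and 83.5 CPM in Fibro 1 (3.69 ± 0.22), though EC 2 had more still, at 3699 CPM on average. Ly6a, the stem cell antigen Sca-1, had 2514 and 2542 CPM in Fibro 2, against 510 and 471 CPM in Fibro 1 (2.34 ± 0.24). Both genes have close paralogs in the Ly6 cluster, and reads shared among them could be divided unevenly. Cd34, a sialomucin of vascular and progenitor cells, had 999 and 1052 CPM in Fibro 2, against 452 and 496 CPM in Fibro 1 (1.09 ± 0.19). Ly6a and Cd34 were called higher in Fibro 2 than in each of the other 9 populations. EC 2 came next for Ly6a, with 1651 and 2114 CPM.

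Secreted and intracellular members of the list rose too. Sema3c, a guidance factor, had 273 and 291 CPM in Fibro 2, against 42.1 and 76.8 CPM in Fibro 1 (2.15 ± 0.15). Wnt2, a Wnt ligand, had 51.8 and 46.6 CPM in Fibro 2, against 2.60 and 5.16 CPM in Fibro 1 (3.47 ± 0.33). Dact2, an intracellular modulator of TGF beta and Wnt signalling, had 64.3 and 74.7 CPM in Fibro 2, against 2.60 and 1.72 CPM in Fibro 1 (5.08 ± 0.34). Dact2 was among the 137 genes called higher than in each other population. Stmn4, a microtubule-binding protein, had 89 UMIs in Fibro 2 and 3 in Fibro 1, a ratio of 52.0 in CPM with a counting interval of 17.2 to 257.

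Over Fibro 2 as a whole, the list of genes known from Col15a1-carrying fibroblasts did not lean to either side. Of 14 such genes, 5 were higher in Fibro 2 than in Fibro 1, 6 lower (8.30% of all genes were called lower) and 3 did not pass, with a median of -0.09; the counts were 4 and 6 without library 1 and 5 and 4 without library 2. With 107 Fibro 2 cells of a smaller cluster, described below, left out, 4 of 13 tested were higher and 7 lower. Col15a1, a basement membrane collagen, had 113 and 117 CPM in Fibro 2, against 269 and 336 CPM in Fibro 1 (-1.43 ± 0.12, adjusted p = 4.6e-11). Penk, the precursor of enkephalins, went the other way, with 181 and 163 CPM in Fibro 2, against 11.4 and 18.7 CPM in Fibro 1 (3.36 ± 0.17, adjusted p = 7.7e-16). Penk RNA was present in 22.2% and 21.5% of Fibro 2 cells at 1500 UMIs, against 1.34% and 3.43% of Fibro 1 cells. Within Fibro 2, Col15a1 had 494 CPM in the smaller cluster, against 55.6 CPM in the larger one.

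**Figure D2:**
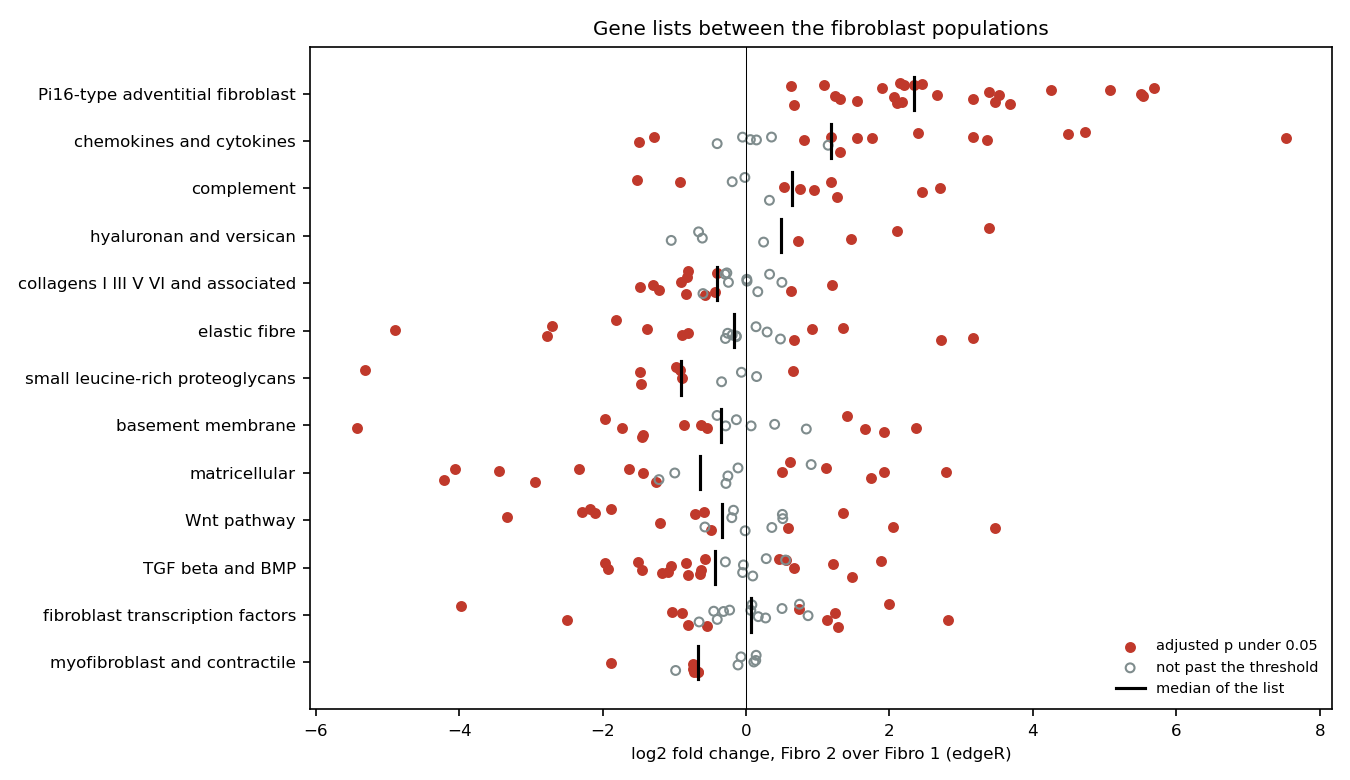
Log2 fold change of each tested member of 13 gene lists, Fibro 2 over Fibro 1, with a filled red point where the adjusted p is under 0.05, an open point where it is not, and a bar at the median of the list. The Pi16-type genes all lie right of 0, the chemokine and complement lists lean right, and the collagen, proteoglycan and contractile lists lean left.

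Across all genes, 1626 of 10488 (15.5%) differed between the fibroblast populations, 755 (7.20%) higher and 871 (8.30%) lower in Fibro 2. Those 2 shares are the background for the counts of list members against Fibro 1 given below. Of the 1626 genes, 367 were at least 2-fold higher and 479 at least 2-fold lower, and 131 and 148 passed 4-fold. The count of called genes was 925 without library 1, 574 without library 2, 939 without the library block and 1197 when cells were clustered on one random portion of the UMIs and compared on the other. Over 10488 genes, the log2 profile of Fibro 2 was closest to that of Fibro 1 (Pearson r = 0.95, as a description across genes of the same libraries), then VSMC (0.820) and EC 1 (0.778), and farthest from Macro (0.614).

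The genes with the largest folds above Fibro 1 included a chemokine, a steroid enzyme, interferon-inducible genes and adhesion proteins. Cxcl13, a B cell chemoattractant, had 44.2 and 168 CPM in Fibro 2, against 0.520 and 0.646 CPM in Fibro 1 (7.52 ± 0.34, adjusted p = 3.6e-16), and it was called higher than in each other population. Few cells carried it: its UMIs lay in 12 of 207 Fibro 2 cells of library 1 and in 33 of 427 of library 2, and 16 cells held 420 of the 453 UMIs of library 2. Akr1c18, a steroid dehydrogenase that inactivates progesterone, had 347 UMIs in Fibro 2 and 2 in Fibro 1, a ratio of 304 in CPM with a counting interval of 83.6 to 2523. Its Fibro 2 values were 41.3 and 112 CPM, and Mono 2 averaged 77.3 CPM.

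Ifi205 had 116 and 153 CPM in Fibro 2, against 0.520 and 1.08 CPM in Fibro 1 (7.10 ± 0.45, adjusted p = 5.7e-13). Ifi204 had 157 and 174 CPM in Fibro 2, against 3.64 and 3.01 CPM in Fibro 1 (5.64 ± 0.27, adjusted p = 1.9e-16). These are neighbouring, related genes of the interferon-inducible Ifi200 family, and reads shared within the family could make their separate counts less certain. Mono 1 averaged 186 CPM of Ifi204 and 6.29 CPM of Ifi205, while Mono 2 averaged 38.3 and 135 CPM, so the genes were not counted alike. Cadm3, a cell adhesion molecule of the nervous system, had 108 and 101 CPM in Fibro 2, against 2.08 and 2.58 CPM in Fibro 1 (5.35 ± 0.28), beside 91.6 CPM in Neuron. Vtn, the adhesive plasma protein vitronectin, had 144 UMIs in Fibro 2 and 2 in Fibro 1. It was not called by DESeq2 (adjusted p = 0.073), and its log2 difference was 3.61 (adjusted p = 0.035) when 107 Fibro 2 cells that formed a smaller cluster of their own were left out.

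The genes with the largest folds below Fibro 1 included several matrix genes. Fmod, a small proteoglycan that organises collagen fibrils, had 4.80 and 13.7 CPM in Fibro 2, against 436 and 432 CPM in Fibro 1 (-5.32 ± 0.21, adjusted p = 3.0e-18). Pex5l, a regulator of pacemaker channels, had 0 and 2.22 CPM in Fibro 2, against 137 and 114 CPM in Fibro 1 (-6.18 ± 0.35, adjusted p = 1.4e-14). Lamc3, a laminin chain, had 0.960 and 1.48 CPM in Fibro 2, against 54.1 and 63.9 CPM in Fibro 1 (-5.43 ± 0.39). Cacna1g, a T-type calcium channel, had 3 UMIs in Fibro 2 and 153 in Fibro 1, which was 29.1 times as much in Fibro 1 (counting interval 9.76 to 143). Neither library of Fibro 2 reached either library of Fibro 1 for any of these 4 genes. They were chosen for large folds of the same direction in each library, so this separation follows from the choice.

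**Figure D3:**
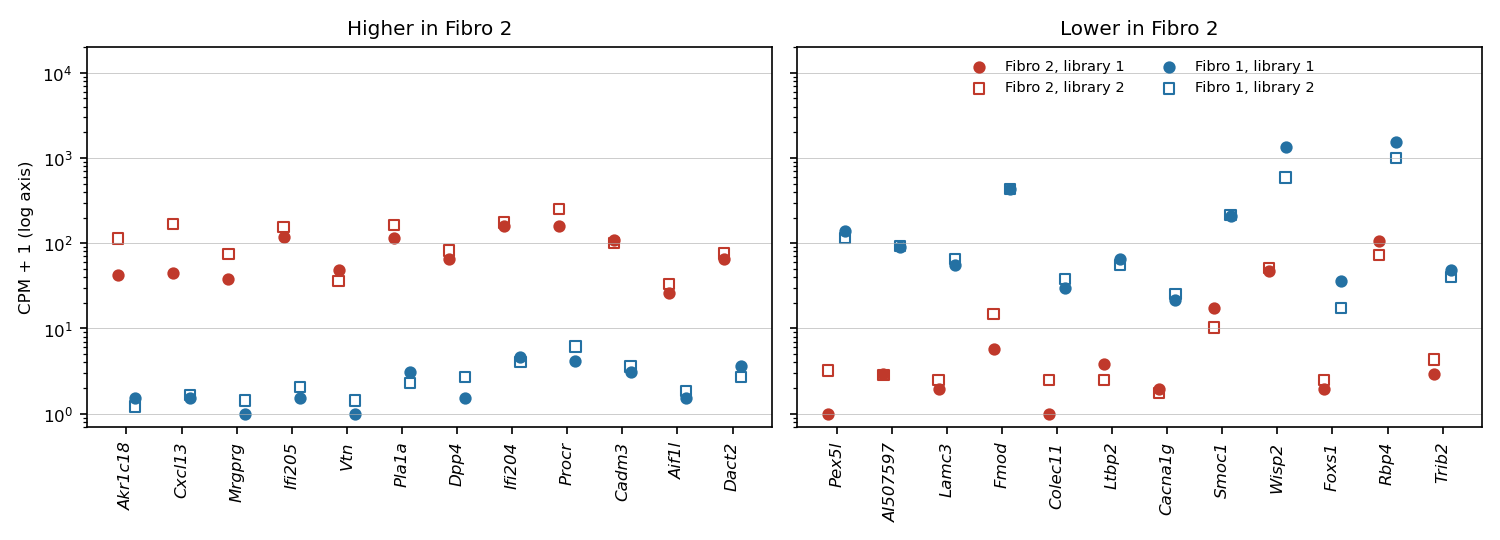
The 12 genes with the largest folds above Fibro 1 (left) and below it (right), in CPM + 1 on a log axis, with Fibro 2 in red left of Fibro 1 in blue, circles for library 1 and squares for library 2. In every gene shown the libraries of Fibro 2 lie on the same side of those of Fibro 1. Only genes with the same direction in both libraries were eligible, so this follows from the choice.

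Collagens of types I, III, V and VI, with other collagens and processing enzymes, were mostly higher than in the mean of the other 9 populations. More of them were lower than higher against Fibro 1. Of 21 such genes, 20 were higher than in the mean of the other 9 populations, where 22.3% of all genes were called higher. Against Fibro 1 only 2 were higher, 10 were lower and 9 did not pass, with a median of -0.40. Col1a1, the main chain of type I collagen, had 2159 and 2126 CPM in Fibro 2, against 5175 and 6647 CPM in Fibro 1 (-1.48 ± 0.20, adjusted p = 8.7e-07). Col1a2, its partner chain, had 3510 and 3498 CPM in Fibro 2, against 7065 and 9094 CPM in Fibro 1 (-1.21 ± 0.19). Plod2, which hydroxylates collagen lysines for cross-linking, had 79.7 and 78.0 CPM in Fibro 2, against 203 and 185 CPM in Fibro 1 (-1.30 ± 0.13). Col14a1, a collagen of fibril surfaces, did not pass, with 1029 and 985 CPM in Fibro 2, against 795 and 787 CPM in Fibro 1 (0.33 ± 0.18, adjusted p = 0.26). The number lower was 6 without library 1 and 5 without library 2, and the number higher 0 without either. Called lower each time were Col1a1, Col1a2, Col6a3, Adamts2 and Plod2.

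Small leucine-rich proteoglycans followed the collagens. Of 10 tested, 6 were lower in Fibro 2 than in Fibro 1 and 1 higher, with a median of -0.90; 6 were lower without library 1 and 4 without library 2. Biglycan (Bgn), which binds collagen and growth factors, had 1451 and 1623 CPM in Fibro 2, against 3781 and 4660 CPM in Fibro 1 (-1.48 ± 0.20). Prelp, which anchors basement membranes, had 203 and 156 CPM in Fibro 2, against 536 and 441 CPM in Fibro 1 (-1.47 ± 0.13). Aspn, or asporin, was the member called higher, with 389 and 613 CPM in Fibro 2, against 267 and 363 CPM in Fibro 1 (0.65 ± 0.15, adjusted p = 0.0018), and it was not called without either library.

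Elastic fibre genes split by member. Elastin (Eln), the core of the fibre, had 243 and 297 CPM in Fibro 2, against 1963 and 1737 CPM in Fibro 1 (-2.77 ± 0.27, adjusted p = 1.1e-09). Mfap4, which binds elastin and microfibrils, had 328 and 597 CPM in Fibro 2, against 2607 and 3372 CPM in Fibro 1 (-2.71 ± 0.29). Ltbp2 had 2.88 and 1.48 CPM in Fibro 2, against 64.5 and 54.7 CPM in Fibro 1 (-4.89 ± 0.34). Efemp1 (fibulin 3) went the other way, with 380 and 578 CPM in Fibro 2, against 76.9 and 70.2 CPM in Fibro 1 (2.73 ± 0.17). Emilin2, a glycoprotein of the elastic fibre surface, had 170 and 211 CPM in Fibro 2, against 25 and 19.6 CPM in Fibro 1 (3.16 ± 0.17). In all, 5 of 20 members were higher, 7 lower and 8 did not pass; without library 1 the counts were 4 higher and 7 lower, and without library 2 they were 4 and 6.

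Basement membrane genes divided. Of 18 tested, 4 were higher, namely the laminin chains Lama4, Lamb1 and Lamc1 and Nid1, 8 were lower and 6 did not pass. Those lower were 4 chains of collagen IV, the laminin chains Lama2, Lamb2 and Lamc3, and Col15a1. Lamb2 was not called without either library, and Lama2 and Col4a2 not without library 2. Nid1, which links laminin to collagen IV, had 496 and 562 CPM in Fibro 2, against 155 and 175 CPM in Fibro 1 (1.66 ± 0.11, adjusted p = 2.0e-13). Lamb1, a laminin chain, had 94.1 and 100.2 CPM in Fibro 2, against 19.2 and 18.3 CPM in Fibro 1 (2.37 ± 0.19). Lama4 had 117 and 96.9 CPM in Fibro 2, against 29.6 and 25.4 CPM in Fibro 1 (1.93 ± 0.17). Col4a3 and Col4a4, chains of a restricted collagen IV network, were 1.97 ± 0.25 and 1.73 ± 0.18 log2 units lower in Fibro 2. The number lower was 7 without library 1 and 5 without library 2.

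Among matricellular proteins, which modulate cells rather than build fibres, the largest differences were downward. Mgp, an inhibitor of vascular calcification, had 2287 and 2326 CPM in Fibro 2, against 14146 and 22200 CPM in Fibro 1 (-2.94 ± 0.29, adjusted p = 2.6e-09). Wisp2 had 46.1 and 49.9 CPM in Fibro 2, against 1349 and 588 CPM in Fibro 1 (-4.06 ± 0.18), and Smoc1, a calcium-binding antagonist of BMP signalling, had 16.3 and 9.24 CPM in Fibro 2, against 209 and 212 CPM in Fibro 1 (-4.21 ± 0.19). Tnxb, or tenascin X, which regulates collagen spacing, rose to 488 and 591 CPM in Fibro 2, against 133 and 147 CPM in Fibro 1 (1.93 ± 0.17; adjusted p = 3.0e-10, and 0.11 by DESeq2). Fibronectin (Fn1), picked after its values were seen, averaged 1044 CPM in Fibro 2, against 150 CPM in Fibro 1 (2.79 ± 0.18). Of 20 tested, 6 were higher and 8 lower, and the number higher was 4 without either library.

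Enzymes of the matrix were mixed, and 4 of 8 genes of hyaluronan and versican, called hyaluronan genes below, were higher in Fibro 2. The 4 were Has1, Vcan, Tnfaip6 and Ptx3, and the Ptx3 difference changed sign without library 2. Over all genes, 7.20% were called higher than in Fibro 1 and 8.30% lower. Among 18 metalloproteinases and inhibitors, 3 were higher, 4 lower and 11 did not pass; 2 were higher without library 1 and 1 without library 2. Adamts5, a protease of versican and aggrecan, had 318 and 398 CPM in Fibro 2, against 134 and 108 CPM in Fibro 1 (1.59 ± 0.15). Timp3, a matrix-bound inhibitor of such proteases, had 642 and 725 CPM in Fibro 2, against 2241 and 1875 CPM in Fibro 1 (-1.61 ± 0.21). Has1, a hyaluronan synthase, had 27.8 and 33.7 CPM in Fibro 2, against 1.56 and 3.66 CPM in Fibro 1 (3.38 ± 0.41). Tnfaip6, which loads protein chains onto hyaluronan, had 124 and 119 CPM in Fibro 2, against 31.2 and 25.6 CPM in Fibro 1 (2.11 ± 0.17). Of the 8 hyaluronan genes 0 were lower; 3 were higher without library 1, and 2 without library 2, without the library block and by DESeq2. Ugdh, which makes the UDP-glucuronate that hyaluronan and other glycosaminoglycans are built from, had 625 and 615 CPM in Fibro 2, against 90.4 and 70.2 CPM in Fibro 1 (2.96 ± 0.12). Gfpt2, which starts hexosamine synthesis, had 320 and 342 CPM in Fibro 2, against 41.1 and 42.2 CPM in Fibro 1 (2.98 ± 0.16), and both enzymes were higher than in each other population.

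Chemokines and cytokines leaned to Fibro 2. Of 19 tested, 11 were higher than in Fibro 1, 2 lower (Ccl19 and Cxcl16) and 6 did not pass, with a median of 1.19; 10 were higher without library 1 and 7 without library 2. Ccl7, a monocyte chemoattractant, had 31.7 and 10.4 CPM in Fibro 2, against 3.12 and 0.861 CPM in Fibro 1 (3.37 ± 0.58, adjusted p = 5.6e-05), far under the 264 CPM of Mono 1. Ackr2, a receptor that scavenges chemokines, had 27.8 and 18.1 CPM in Fibro 2, against 4.16 and 7.32 CPM in Fibro 1 (1.75 ± 0.39, adjusted p = 0.0016), a call lost without library 1. Cxcl14 was higher by 4.48 ± 0.52. Its UMIs lay chiefly in the smaller cluster described below, and without that cluster it fell under the filter on low counts. Cxcl12, the ligand of Cxcr4, had 1328 and 1116 CPM in Fibro 2, against 869 and 994 CPM in Fibro 1 (0.36 ± 0.20, adjusted p = 0.30).

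Complement genes leaned the same way. Of 12 tested, 7 were higher in Fibro 2 than in Fibro 1, 2 lower and 3 did not pass, with a median of 0.64; 5 were higher without library 1 and 4 without library 2, and 1 was lower without either. C3, the central component, had 1826 and 1691 CPM in Fibro 2, against 333 and 207 CPM in Fibro 1 (2.70 ± 0.22, adjusted p = 2.1e-11), and was higher than in each other population. Cd55, which dissociates the C3 convertase at the cell surface, had 176 and 188 CPM in Fibro 2, against 33.8 and 32.5 CPM in Fibro 1 (2.45 ± 0.16). C1s1, a serine protease of the classical pathway, had 502 and 561 CPM in Fibro 2, against 192 and 267 CPM in Fibro 1 (1.18 ± 0.12).

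Genes of coagulation and of surface peptidases divided evenly. Of 14 coagulation and fibrinolysis genes, 5 were higher and 5 lower; the number higher was 3 without library 1 and 2 without library 2. Plat, the tissue plasminogen activator, had 369 and 321 CPM in Fibro 2, against 84.2 and 68.0 CPM in Fibro 1 (2.18 ± 0.16). F3, tissue factor, had 448 and 170 CPM in Fibro 2, against 1805 and 596 CPM in Fibro 1 (-1.93 ± 0.26), and was lower in library 2 in both populations. Of 16 ectopeptidases and ectonucleotidases, 6 were higher and 6 lower, with 2 higher without either library and 6 and 3 lower without library 1 and without library 2. Cpxm2, a carboxypeptidase-like matrix protein, had 53.8 and 38.5 CPM in Fibro 2, against 313 and 259 CPM in Fibro 1 (-2.69 ± 0.15). Among 14 genes of lipases and prostanoids, 4 were higher and 2 lower, with 1 and 0 lower without library 1 and without library 2, and Ptgs1, the constitutive cyclooxygenase, had 114 and 107 CPM in Fibro 2, against 16.6 and 20.4 CPM in Fibro 1 (2.50 ± 0.21).

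In the Wnt pathway the ligand Wnt2 rose and the secreted inhibitors split, with Sfrp1 and Sfrp4 called higher and Sfrp2, Sfrp5, Frzb and Dkk3 lower. Of 20 genes tested, 4 were higher, 9 lower and 7 did not pass; 3 were higher and 7 lower without library 1, and 2 higher and 5 lower without library 2. The calls of Sfrp4 and Sfrp5 were lost without either library. Beside Wnt2, given above, the secreted inhibitor Sfrp2 fell to 687 and 709 CPM in Fibro 2, against 4124 and 2826 CPM in Fibro 1 (-2.28 ± 0.27, adjusted p = 1.1e-07). Frzb, another secreted inhibitor, had 8.64 and 4.81 CPM in Fibro 2, against 72.8 and 55.1 CPM in Fibro 1 (-3.33 ± 0.34). Sfrp1, chosen after its values were seen, went the other way with an average of 311 CPM in Fibro 2, against 78.8 CPM in Fibro 1 (2.05 ± 0.16). In the hedgehog list 0 of 9 genes were higher and 2 lower, Hhip and Boc, the second not called without library 2. Hhip, which binds and blocks hedgehog ligands, had 35.5 and 8.14 CPM in Fibro 2, against 154 and 135 CPM in Fibro 1 (-3.11 ± 0.26). Gli1, the pathway's transcriptional target, had 12.5 and 8.51 CPM in Fibro 2, against 18.7 and 18.5 CPM in Fibro 1 (-0.93 ± 0.37, adjusted p = 0.096).

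TGF beta and BMP genes leaned to Fibro 1, and many of the calls were lost without a library. Of 24 tested, 6 were higher and 12 lower, with a median of -0.43, and without library 1 or without library 2 the counts were 4 higher and 4 lower. Bmp4, a ligand, had 41.3 and 61.0 CPM in Fibro 2, against 212 and 203 CPM in Fibro 1 (-1.93 ± 0.20). Tgfb3, a ligand, had 56.6 and 43.6 CPM in Fibro 2, against 119 and 145 CPM in Fibro 1 (-1.50 ± 0.17). Fst, follistatin, which sequesters activins, had 210 and 235 CPM in Fibro 2, against 80.0 and 79.6 CPM in Fibro 1 (1.48 ± 0.18). Bmp4, Tgfb3 and Fst kept their calls without each library.

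Receptors and ligands of platelet-derived and insulin-like growth factors also separated the populations. While Pdgfra did not differ detectably, Pdgfrb, the receptor of pericytes and smooth muscle, had 35.5 and 51.4 CPM in Fibro 2, against 151 and 159 CPM in Fibro 1 (-1.78 ± 0.20, adjusted p = 1.8e-08). Pdgfrl, a related protein, had 92.2 and 106 CPM in Fibro 2, against 413 and 488 CPM in Fibro 1 (-2.20 ± 0.14). In all, 1 of 7 PDGF genes was higher, Pdgfc, and 4 were lower. The Pdgfc call was lost without library 2 and that of Pdgfd, among the lower, without either library. The growth factor Igf1 fell to 503 and 313 CPM in Fibro 2, against 1527 and 988 CPM in Fibro 1 (-1.65 ± 0.20), and its binding protein Igfbp6 had 1778 and 2055 CPM in Fibro 2, against 701 and 692 CPM in Fibro 1 (1.43 ± 0.29, adjusted p = 0.0004; 0.069 without the library block and 0.24 by DESeq2). Igfbp3 was higher by 2.71 ± 0.17, but this rested on the smaller cluster, without which the log2 difference was -0.02 (adjusted p = 0.99). Of 12 IGF genes tested 3 were higher and 2 lower, and 2 were higher without library 1 and 1 without the library block.

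Of the enzymes that make retinoic acid, Aldh1a2 and Aldh1a3 rose and Aldh1a1 did not pass the test. Aldh1a3, which makes retinoic acid, had 93.1 and 115 CPM in Fibro 2, against 5.72 and 6.46 CPM in Fibro 1 (4.08 ± 0.24, adjusted p = 1.7e-14), and was higher than in each other population. Aldh1a2, its relative, had 32.6 and 20.3 CPM in Fibro 2, against 2.60 and 2.80 CPM in Fibro 1 (3.08 ± 0.39). Rbp4, the plasma carrier of retinol, had 105 and 71.7 CPM in Fibro 2, against 1536 and 1003 CPM in Fibro 1 (-3.87 ± 0.18). Of 11 genes tested, 3 were higher and 2 lower, and 2 were higher without library 1 and without library 2.

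Transcription factors of the early B cell factor family marked Fibro 2. Ebf1 had 976 and 972 CPM in Fibro 2, against 265 and 220 CPM in Fibro 1 (2.00 ± 0.22, adjusted p = 1.6e-08), and Ebf2 had 132 and 132 CPM in Fibro 2, against 21.8 and 16.8 CPM in Fibro 1 (2.81 ± 0.18, adjusted p = 4.5e-13). Both were higher than in each of the other 9 populations, and Ebf1 was next highest in EC 2, at 388 CPM. Foxs1 had 0.960 and 1.48 CPM in Fibro 2, against 35.3 and 16.4 CPM in Fibro 1 (-3.97 ± 0.49), and Twist2, a mesenchymal factor, had 57.6 and 38.8 CPM in Fibro 2, against 72.8 and 88.4 CPM in Fibro 1 (-0.89 ± 0.18; adjusted p = 0.00066, but 0.28 by DESeq2 and 0.845 without library 2). Tcf21, a factor of epicardial and adventitial fibroblasts, had 20.2 and 24.4 CPM in Fibro 2, against 9.36 and 15.9 CPM in Fibro 1 (0.75 ± 0.33, adjusted p = 0.15). In all, 6 of 24 factors were higher and 6 lower; the number higher was 6 without either library, and the number lower was 5 without library 1 and 1 without library 2. Of 11 genes of fat cell precursors 3 were higher, among them Lpl and Ebf2, and 3 lower, with 2 lower without library 1 and 0 without library 2.

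Against the other 9 populations together, 3304 genes (31.5%) were called, 2338 higher and 966 lower, and 137 (1.31%) were higher than in each of the 9. Taken one at a time, the share of genes called in either direction was 35.2% against EC 1, 32.8% against EC 2, 22.5% against EC 3, 37.0% against Macro, 43.3% against Mono 1, 39.7% against Mono 2, 12.4% against Neuron and 42.2% against VSMC. The cells and UMIs behind a population also bear on its share, so the shares do not rank likeness. Neuron had only 12 and 32 cells, with 43318 and 93626 UMIs. Its profile correlated with that of Fibro 2 at r = 0.73, against 0.95 for Fibro 1. Against the 9 populations together, 70.8% of the called genes were higher with the main scaling, 66.4% with RLE size factors and 59.7% by DESeq2. Among the 137, Mrgprg, an orphan receptor of the Mas-related family, had 37.4 and 73.2 CPM in Fibro 2, against 0 and 0.430 CPM in Fibro 1, and its smallest log2 difference from any population was 4.75. Gpx3, a secreted glutathione peroxidase, had 2222 and 1686 CPM in Fibro 2, against 219 and 199 CPM in Fibro 1 (3.19 ± 0.24). Tmem100, a membrane protein of BMP signalling, had 453 and 515 CPM in Fibro 2, against 37.9 and 65.4 CPM in Fibro 1 (3.16 ± 0.15). Opcml, an adhesion molecule of the nervous system, had 137 and 170 CPM in Fibro 2, against 11.4 and 17.0 CPM in Fibro 1 (3.37 ± 0.19), and Adgrd1, an adhesion G protein-coupled receptor, had 103 and 133 CPM in Fibro 2, against 12.5 and 17.9 CPM in Fibro 1 (2.90 ± 0.20). Clec3b, tetranectin, had 4866 and 4449 CPM in Fibro 2, against 1626 and 1651 CPM in Fibro 1 (1.49 ± 0.20). Without library 2 the count of genes higher than in each population was 77, and without library 1 it was 109.

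The share of cells with a UMI told apart genes carried by most cells from genes carried by few. After thinning to 1500 UMIs, which left out 9 of 207 Fibro 2 cells of library 1 and 0 of library 2, Clec3b was found in 99.0% and 97.2% of Fibro 2 cells, against 68.4% and 65.0% of Fibro 1 cells and 7.65% and 5.21% of VSMC cells. Ccl11 was found in 58.6% and 51.3% of Fibro 2 cells, against 4.81% and 3.96% of Fibro 1 cells and 0.850% and 0.758% of VSMC cells. C3 was found in 76.3% and 75.9% of Fibro 2 cells, against 27.3% and 20.7% of Fibro 1 cells. These were genes of the majority of the population.

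Dpp4, by contrast, was found in 10.1% and 6.32% of Fibro 2 cells at that depth and in 17.4% and 25.8% of unthinned cells, at medians of 4515 and 5906 UMIs. Procr was found in 18.7% and 20.4% and Pla1a in 10.1% and 12.9% of thinned Fibro 2 cells. VSMC cells, with medians of 4648 and 7154 UMIs, had at most 0.472% for any of these 3 genes when thinned. A Fibro 2 cell without a UMI of such a gene is not shown to lack its RNA at this depth.

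**Figure D4:**
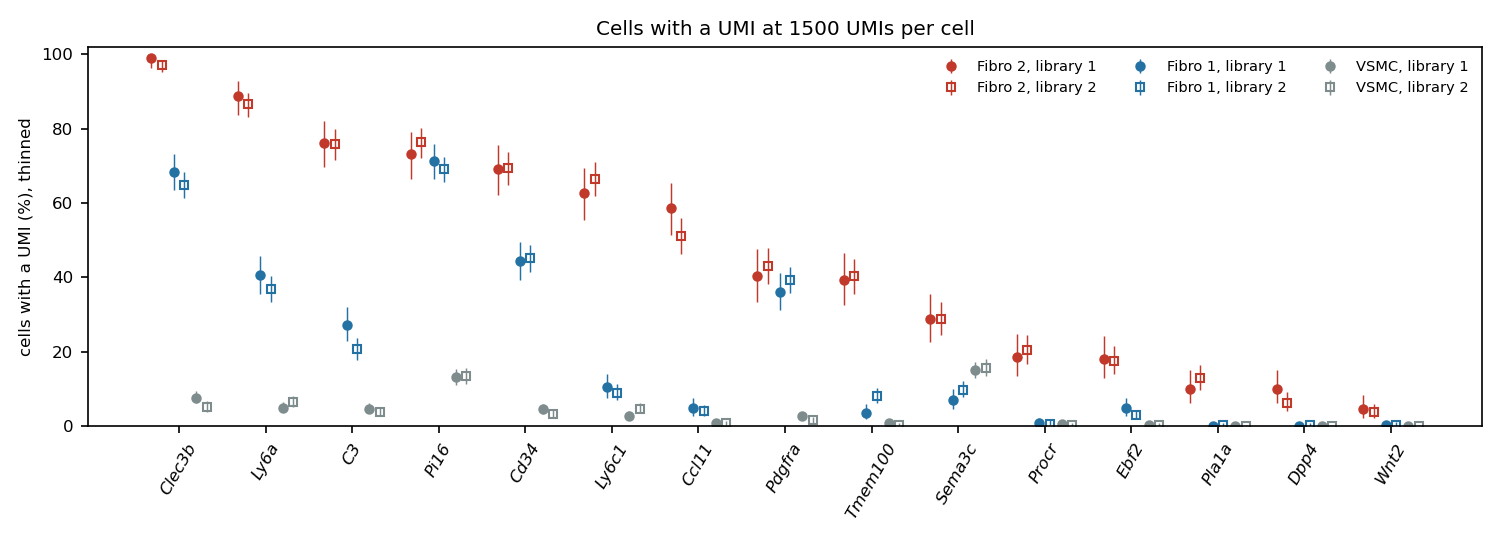
Percent of cells with at least 1 UMI of 15 genes after thinning each cell to 1500 UMIs, for Fibro 2 (red), Fibro 1 (blue) and VSMC (grey), with circles for library 1, squares for library 2 and exact 95% intervals. Clec3b, Ly6a and C3 are found in most Fibro 2 cells, Pi16 in about equal shares of both fibroblast populations, and Dpp4, Pla1a and Wnt2 in few.

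Fibro 2 cells were not uniform. Among 2588 genes with a mean of at least 0.1 UMI in cells thinned to 2000 UMIs, the median ratio of variance to mean was 1.00, and that of Pi16 was 21.3 in library 1 and 21.6 in library 2. Apoe, a lipid carrier, had ratios of 11.6 and 14.9, Mmp3, a stromal metalloproteinase, 15.1 and 9.42, and Igfbp3 16.9 and 8.74. Igfbp3 was found in only 12.9% and 13.4% of these cells. The ratio of variance to mean rose with the mean, so the median over all genes is a low scale for abundant genes. Among genes with a like mean in library 1, the median ratio was 3.83 for Pi16, 1.97 for Apoe, 1.25 for Mmp3 and 1.12 for Igfbp3. These medians take the lower library of each gene. Haemoglobin genes headed the ranking, with Hba-a1 at 50.5 and 110; the summed CPM of 5 red cell genes was 7436 and 5074 in Fibro 2, against 9172 and 7014 in Fibro 1, and none of the 5 differed past the threshold.

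The variable genes moved in groups across cells. As a description over 178 and 411 cells, which share library and depth, Col1a1 and Col1a2 correlated at r = 0.745 in library 1 and 0.667 in library 2, and Col3a1 and Col1a1 at 0.626 and 0.695. Pi16 and Apoe went in opposite directions, with r = -0.570 and -0.512, and Pi16 and Cxcl12 did likewise. Igfbp3 and Cxcl12 rose together, with r = 0.435 and 0.443.

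**Figure D5:**
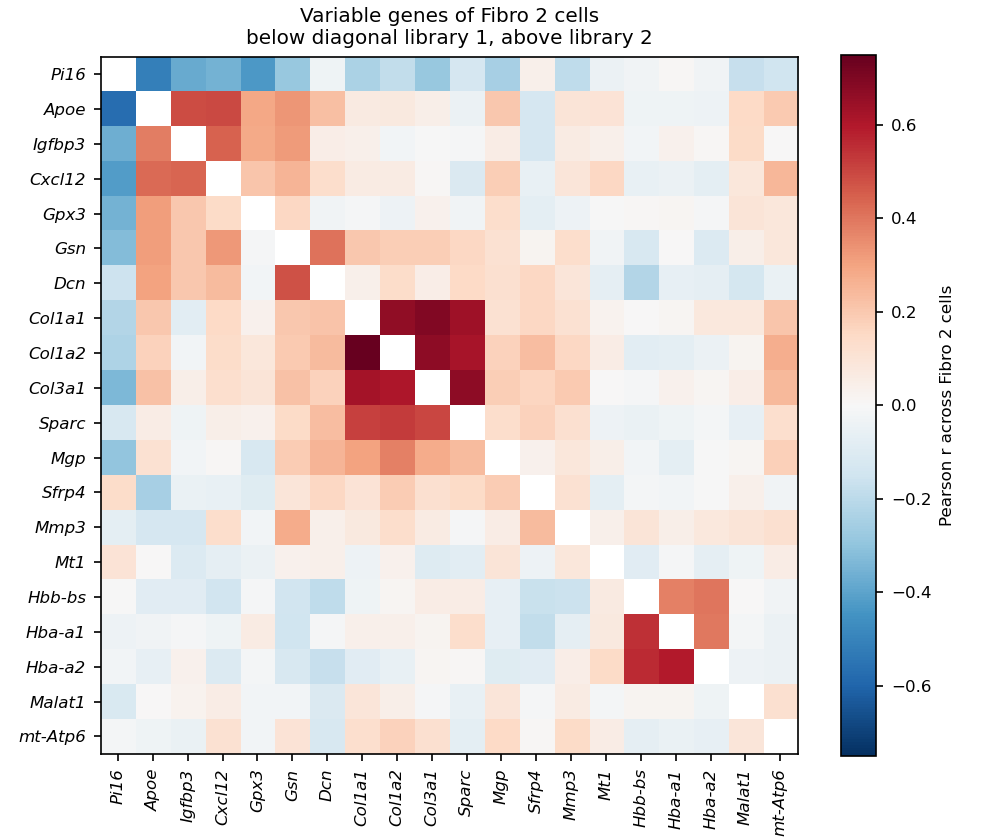
Pearson correlation across Fibro 2 cells between the 20 genes that vary most, with library 1 below the diagonal and library 2 above it; red is positive and blue negative. The collagens and Sparc form a block, the haemoglobin genes form another, and Apoe, Igfbp3 and Cxcl12 correlate with each other and negatively with Pi16.

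When all cells were clustered again on all UMIs, Fibro 2 gave a larger cluster of 480 of its cells and a smaller one of 107. This division did not recur in the clustering on a portion of the UMIs, where 588 Fibro 2 cells formed 1 cluster. The smaller cluster held 15% of Fibro 2 cells in library 1 (10.4 to 20.6%) and 17.8% in library 2 (14.3 to 21.8%), so both aortas held it. Summed over its cells, Pi16 had 274 CPM in the smaller cluster, against 8209 CPM in the larger one, and Dpp4 had 4.35 CPM, against 91.4 CPM. Apoe had 8150 CPM in the smaller cluster, against 927 CPM in the larger one, Igfbp3 1772 CPM, against 38.1 CPM, and Col15a1 494 CPM, against 55.6 CPM. These genes helped to define the clusters, so the values are a description with no test. Median depth was 3955 and 4213.5 UMIs in the smaller cluster, against 4918 and 6793.5 UMIs in the larger one. Without the smaller cluster, 1693 genes differed between Fibro 2 and Fibro 1, of which 1521 were among the 1626.

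Between the aortas Fibro 2 varied little. Of 4721 genes with at least 100 UMIs in Fibro 2, 53 (1.12%) differed at least 2-fold between the libraries, 36 higher in library 2 and 17 higher in library 1. Of the 53, 46 went the same way in Fibro 1, 19 of them at least 2-fold there too. Picked after the values were seen, Cfd, an adipocyte-rich complement protease, had 89.5 CPM in library 2 and 10.6 CPM in library 1, and Ifit1, an interferon-inducible gene, had 20.3 CPM in library 2 and 92.2 CPM in library 1. Ccl21a, one of several near-identical chemokine genes, had 11.1 CPM in library 2 and 106 CPM in library 1. It did not go this way in Fibro 1, where library 2 was 0.34 log2 units higher. With 1 animal behind each library, animal, sex genes and library preparation cannot be told apart here.

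Most markers of other cell types were detected in Fibro 2 at low levels. The 6 smooth muscle markers summed to 1358 and 973 CPM in Fibro 2, against 2322 and 1345 CPM in Fibro 1 and 40014 and 37058 CPM in VSMC; 4 of the 6 were called lower in Fibro 2 than in Fibro 1, and 1 without either library. The 6 endothelial markers summed to 86.4 and 69.9 CPM in Fibro 2, against 89.4 and 127 CPM in Fibro 1, with Pecam1 called lower except without library 2, and the 6 macrophage markers to 141 and 169 CPM, against 178 and 119 CPM, with none called. Pericyte markers summed to 303 and 266 CPM in Fibro 2, against 431 and 456 CPM in Fibro 1, with 3 of 6 called lower, 2 without library 1 and 0 without library 2. Ms4a1 was at 0 in both populations, Sox10 at 0 in Fibro 2 and Lep and Kcna1 at 0 in Fibro 1. The part of these RNAs in the contractile and receptor results above was not tested.

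The 6 mesothelial markers summed to 10.6 and 42.9 CPM in Fibro 2, against 1.04 and 24.1 CPM in Fibro 1, and in library 2 3 Fibro 2 cells held 94 of the 116 UMIs and 2 Fibro 1 cells 106 of 112. Krt19 alone of the 6 passed the filter and was called higher (2.96 ± 0.73, adjusted p = 0.0048), a call lost without library 2 (adjusted p = 0.23) and when 8 Fibro 2 and 2 Fibro 1 cells with at least 2 mesothelial UMIs were left out (adjusted p = 0.19). The count of called genes against Fibro 1 was then 1606.

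Cell cycle, stress, interferon, antigen presentation, contractile and guidance genes were also compared with Fibro 1. The share of all genes called was 7.20% higher and 8.30% lower in Fibro 2. Of 13 cell cycle genes tested 0 were called in either direction by edgeR or DESeq2, and of 17 immediate early genes, which dissociation can induce, Atf3 was higher and Ier3 lower, the Atf3 call being lost without library 2 and the Ier3 call without library 1. Of 14 interferon response genes 3 were higher and 0 lower, with 2 higher without library 1 and 1 without library 2; Ifi27l2a, an interferon-inducible mitochondrial protein, had 563 and 578 CPM in Fibro 2, against 90.4 and 98.3 CPM in Fibro 1 (2.57 ± 0.25). Of 9 MHC genes 0 were higher and 1, Cd74, lower, a call that went to a log2 difference of 0.01 without library 1. Of 12 contractile genes 0 were higher and 6 lower, 2 of them without either library; Lmod1, an actin nucleator of smooth muscle, had 28.8 and 20.7 CPM in Fibro 2, against 100.3 and 77.7 CPM in Fibro 1 (-1.88 ± 0.21). Of 21 guidance genes 4 were higher and 3 lower, with 3 and 2 higher and 1 and 2 lower without library 1 and without library 2.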

How the data were processed

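Single-cell RNA of 2 whole-aorta libraries was analysed from the table of UMI counts per gene and cell that the authors deposited, with their annotation of 5451 cells. Cell Ranger 2.1 is the tool named for the reads, per the submitters' processing notes, and the genome build is not given in the sources used here. The library was read from the barcode suffix, which could not be tied to the sample titles WT1 and WT3.

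The deposited counts were summed per library and population, giving 20 profiles from 16971 genes. These were fitted with edgeR 4.0.16 in R 4.3.3 (filterByExpr, TMM scaling, quasi-likelihood test) with population and library as terms. Both populations of a library come from the same animal, so the library pairs them as a block. Standard errors were derived from the fold change and F statistic. Cells are not replicates, and n is 2 libraries. Shares of cells were computed after thinning to 1500 UMIs and variance ratios after thinning to 2000, with exact Clopper-Pearson intervals that cover counting error only. Doublets called by the caller used here (46 and 34 cells) were kept, and left out as an alternative. Clusters were rebuilt with scanpy 1.11.5 and leidenalg 0.10.2. DESeq2 1.42.0, other scaling, filters, thinning and leaving out each library were alternatives. In data simulated for the comparison with Fibro 1, over 10128 genes tested, 77% of genes changed 2-fold and 99% of those changed 4-fold were called. The 100 genes changed at each fold were drawn from genes with at least 100 UMIs in the fibroblast populations. The rates therefore do not cover genes with fewer UMIs.

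Named genes were those with the largest changes past the threshold overall and within each list, and a set of fixed genes. The members and gene lists were chosen with earlier results of these data known. Promoter sequences are from RefSeq, GRCm38.p6. Values of some list members are not reported here.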

Additional observations from a re-analysis of the deposited data

How the results depend on the processing

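Of 133 named genes, 4 changed sign in an alternative in which they were tested (111 were tested with cells thinned, 124 with the UMIs split and 131 with only the fibroblast populations in the fit): Igfbp3 (-0.020) and Cxcl12 (-0.26) without the smaller cluster, Ptx3 (-0.34 without library 2, 2.26 without library 1) and Cd74 (0.014 without library 1, -1.68 without library 2). The cause was not tested. Against Fibro 1, 1626 genes were called with the library block. The count was 939 with no replicate block (418 higher, 521 lower), all of them among the 1626, so the pairing mattered to the number of calls. It was 1078 with DESeq2 (557 lower), 807 with cells thinned (411 higher, 396 lower) and 574 to 925 with a library left out (285 to 422 higher, 289 to 503 lower). With only the 2 fibroblast populations in the fit, 1135 were higher. Against the mean of the other 9 populations, 3304 genes were called, against 2079 to 2840 with a library left out (428 to 706 lower), 1825 with cells thinned (1450 higher, 375 lower) and 2187 with the UMIs split (450 lower). The 137 genes higher than in each population became 65 with DESeq2, 91 with no replicate block and 77 to 109 with a library left out. With a library left out, the lone Fibro 2 profile is assumed to vary like the others. Leaving out the smaller cluster or cells with mesothelial UMIs was chosen after seeing the data. Genes with few UMIs are limited by depth.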
